A study of Homo sapiens with 24 samples.

Results

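These 28 genes make cholesterol, sense it or move it, and they were measured as RNA in HCT116 colorectal cancer cells with and without the TNRC6 proteins. The genes were selected by their known roles in the sterol pathway by a rule that uses no measured value, from 57721 genes with quantified transcripts: 18 enzymes of synthesis, 5 genes of the SREBP system that controls them, and 5 genes of uptake, transport and related steps. The set was nevertheless chosen with earlier results of these data known, so it is not independent of them. All 28 passed the filter on low counts, as did 24153 genes in all. Of the 8 groups, with 3 libraries each and 24 in all, 4 were transfected: TNRC6AB-/- cells, which lack both TNRC6A and TNRC6B, given siTNRC6C, a pool of duplexes against TNRC6C; TNRC6AB-/- cells given siGL2, a control duplex without a complementary target; wild-type cells (WT) given siTNRC6C; and WT given siGL2. The other 4 groups, TNRC6A-/-, TNRC6B-/-, TNRC6AB-/- and WT, were not transfected. Every group grew in McCoy's 5A medium with fetal bovine serum, which supplies lipoprotein cholesterol. Each knockout is 1 purchased line, made by a frameshifting point mutation in TNRC6A and by a deletion in TNRC6B. In the transfections TNRC6AB-/- cells were plated more densely than WT, by the study's methods, so density and genotype cannot be told apart there. Whether the 3 libraries of each group were separate cultures is not stated, so p-values measure the spread between these libraries, which may be technical.

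Cells build cholesterol from acetyl-CoA, first to mevalonate and the isoprenoids, then through squalene and lanosterol to the sterol ring. The transcription factors SREBP1 and SREBP2, made from SREBF1 and SREBF2, switch these enzymes on. SCAP escorts the SREBPs to the Golgi for cleavage when membrane sterol is low, and INSIG1 and INSIG2 hold SCAP in the endoplasmic reticulum when sterol is high, so each is a brake. Export runs the other way: ABCA1 pumps cholesterol to lipoprotein acceptors, and MYLIP, a ubiquitin ligase also known as IDOL, marks lipoprotein receptors for breakdown. Both are known targets of the sterol-activated LXR receptors. TNRC6 proteins are scaffolds that tie Argonaute and its microRNA to the mRNA decay machinery, and ABCA1 is a known target of miR-33, whose genes lie inside SREBF2 and SREBF1.

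Levels are CPM, the reads of a gene relative to a library size scaled by TMM, and a gene is said to have risen or fallen where its adjusted p was below 0.05 in edgeR's quasi-likelihood test of all 24 libraries. Depth ran from 28130899 to 42678308 reads per library (median 34451221). The targeted genes were lower where the labels place a knockout or knockdown, though their RNA was not absent. TNRC6A had 69.8, 69.7 and 66.4 CPM in TNRC6A-/- cells, against 118.0, 95.4 and 120.9 CPM in WT, and TNRC6B had 126.4, 120.1 and 113.1 CPM in TNRC6B-/- cells, against 184.4, 189.6 and 202.8 CPM in WT. TNRC6C had 20.7, 19.8 and 18.7 CPM in TNRC6AB-/- siTNRC6C cells, against 127.1, 119.1 and 113.1 CPM in TNRC6AB-/- siGL2 cells, and it rose in each knockout line (log2 fold change 0.92 in TNRC6AB-/- against WT). The epithelial markers EPCAM, KRT8, KRT18 and CDH1 were present in every library, at 10.8 CPM or more, and 8 markers of blood, vessel and liver cells were at 4.79 CPM or less. The epithelial markers were not level across groups. CDH1 had 10.8, 22.5 and 40.5 CPM in TNRC6AB-/- cells, against 84.7, 135 and 74.7 CPM in WT. EPCAM had 53.4, 79.6 and 113 CPM in TNRC6AB-/- cells, against 206, 212 and 223 CPM in WT, while KRT8 and KRT18 were higher in every TNRC6AB-/- library than in WT. Fragments were 196.7 to 214.1 bases long in transfected libraries, against 165.4 to 191.5 bases in untransfected ones, so transfection and library preparation cannot be told apart where a transfected group is set against an untransfected one. Among the untransfected groups, fragments were 165.4 to 171.6 bases long in TNRC6A-/- libraries, against 182.1 to 189.7 bases in WT, so the same limit holds for TNRC6A-/- against WT.

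ABCA1 (ENSG00000165029.15, GRCh38 chromosome 9, 104781002 to 104928237, minus strand), the cholesterol exporter, rose in each knockout line. It had 10.5, 15.0 and 12.8 CPM in TNRC6A-/- cells, 12.4, 13.5 and 15.3 CPM in TNRC6B-/- cells and 32.2, 36.4 and 42.2 CPM in TNRC6AB-/- cells, against 5.31, 4.85 and 5.41 CPM in WT. Every single-knockout library lay above every WT library, and every double-knockout library lay above both single knockouts. The log2 fold change against WT was 1.30 in TNRC6A-/- cells (SE 0.13, adjusted p = 3.81e-07), 1.40 in TNRC6B-/- cells (SE 0.13, adjusted p = 3.89e-07) and 2.83 in TNRC6AB-/- cells (SE 0.13, adjusted p = 7.2e-13). On the TPM scale, per transcript length, ABCA1 was the least abundant of the 28 genes in WT, at 0.46 ± 0.11 TPM, and had 3.32 ± 0.51 TPM in TNRC6AB-/- cells (SD, n = 3 each). In the RNA of a whole culture, fewer expressing cells and less RNA per cell cannot be told apart, for this gene or the others.

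In transfected cells ABCA1 was again higher in the double knockout. It had 37.5, 38.7 and 38.0 CPM in TNRC6AB-/- siTNRC6C cells and 21.2, 18.9 and 18.5 CPM in TNRC6AB-/- siGL2 cells, against 6.98, 6.57 and 7.11 CPM in WT siGL2 cells. The 3 groups did not overlap. The log2 fold change was 2.46 for TNRC6AB-/- siTNRC6C against WT siGL2 (SE 0.13, adjusted p = 1.93e-12), 1.504 for TNRC6AB-/- siGL2 against WT siGL2 (SE 0.13, adjusted p = 8.89e-09) and 0.96 for siTNRC6C against siGL2 within TNRC6AB-/- cells (SE 0.12, adjusted p = 4.5e-05). In WT the same siTNRC6C pool went with less ABCA1, 4.70, 5.13 and 4.16 CPM with siTNRC6C against 6.98, 6.57 and 7.11 CPM with siGL2, a log2 fold change of -0.56 (SE 0.13, adjusted p = 0.0368). That call was lost in 9 of 15 alternative fits, among them all 6 that left out 1 of its libraries, with an adjusted p of up to 0.23. The siTNRC6C effect differed between the genotypes by a log2 value of 1.52 (TNRC6AB-/- minus WT, SE 0.18, adjusted p = 8.85e-05), and this call held in all 21 alternative fits. TNRC6C itself fell further in TNRC6AB-/- cells (log2 fold change -2.60) than in WT (-1.35). In WT it averaged 21.0 CPM with siTNRC6C and 53.7 CPM with siGL2. The TNRC6C falls differed by -1.25 (edgeR adjusted p = 1.1e-05), and the part of this in the ABCA1 difference was not tested.

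Because TNRC6 acts with Argonaute and its microRNA, seed matches in the 3′ untranslated regions of the members were read from GENCODE 29. The family and window were chosen after ABCA1's values were seen, small RNAs were not measured, and a match is a description only. The sequences shown are the pair of miR-33 guides from RefSeq (GRCh38.p14), with the seed, bases 2 to 8, in capitals. miR-33a lies at chr22:41900949-41900969 (plus strand) within SREBF2, and miR-33b at chr17:17813897-17813916 (minus strand) within SREBF1.
hsa-miR-33a-5p: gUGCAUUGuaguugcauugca
hsa-miR-33b-5p: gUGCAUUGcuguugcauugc
Both guides share 1 seed, which pairs with CAATGCA. That word was present in the 3′ untranslated region of 7.5% of 14754 tested genes and in 3 of the 26 members with an annotated region: SCAP, NPC1 and ABCA1. ABCA1 held it 4 times in 3313 bases of transcript ABCA1-202, a region longer than that of 87% of genes, and 3 of the 4 fall within the 30 bases at chr9:104784155-104784184 (minus strand), where capitals mark the matches, the first pair of which overlap.
ABCA1 miR-33 cluster: tattCAATGCAATGCAattCAATGCAatga
Neither SCAP nor NPC1, with 1 match each, passed the test in any of the 9 comparisons. ABCA1 also held matches to the other seeds searched, those of miR-17 (1), miR-19b (2), miR-27a (2), miR-128 (1) and miR-148a (1). Matches to these seeds were present in 20.2%, 12.8%, 14.8%, 18% and 13.2% of the 14754 genes, in that order.

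**Figure D1:**
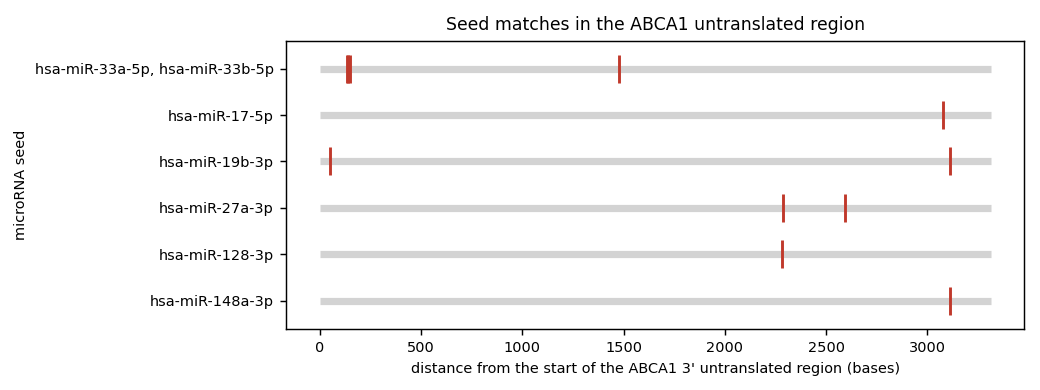
Positions of 7-base seed matches along the 3313 bases of the ABCA1 3′ untranslated region (x axis, bases from its start), with 1 line for each microRNA seed searched. The 4 miR-33 matches fall as a group of 3 at positions 135, 140 and 150 and 1 at position 1475.

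MYLIP (ENSG00000007944.14, chromosome 6, 16129125 to 16148248, plus strand) rose with ABCA1 in the 3 knockout lines. It had 18.2, 22.5 and 21.1 CPM in TNRC6A-/- cells, 16.9, 25.8 and 26.4 CPM in TNRC6B-/- cells and 45.6, 62.1 and 58.5 CPM in TNRC6AB-/- cells, against 12.8, 13.6 and 12.2 CPM in WT. No knockout library overlapped WT. The log2 fold change was 0.68 in TNRC6A-/- cells (SE 0.14, adjusted p = 0.00165), 0.84 in TNRC6B-/- cells (SE 0.14, adjusted p = 0.000859) and 2.11 in TNRC6AB-/- cells (SE 0.14, adjusted p = 1.62e-10). After transfection it had 57.2, 59.97 and 57.7 CPM in TNRC6AB-/- siTNRC6C cells and 43.1, 38.9 and 36.2 CPM in TNRC6AB-/- siGL2 cells, against 12.4, 12.2 and 11.4 CPM in WT siGL2 cells. Again the 3 groups did not overlap, with log2 fold changes of 2.28 (SE 0.14, adjusted p = 2.73e-11) and 1.72 (SE 0.14, adjusted p = 5.23e-09) against WT siGL2, and of 0.56 between the siRNAs in TNRC6AB-/- cells (SE 0.13, adjusted p = 0.0132). The last call was lost in 4 of 14 alternative fits and that in TNRC6B-/- cells in 2 of 15, while the other 4 calls given here held in all 15. With siTNRC6C in WT the level was 11.8, 11.4 and 11.7 CPM, and the log2 difference from siGL2 was -0.05 (95% interval -0.34 to 0.24). Unlike ABCA1, the siTNRC6C effect of MYLIP did not differ by genotype past the threshold (0.61, SE 0.19, adjusted p = 0.0799).

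INSIG2 (ENSG00000125629.14, chromosome 2, 118088452 to 118110997, plus strand), the brake that does not itself depend on SREBP in the usual account, fell in 4 of the 9 comparisons. It had 15.9, 15.9 and 16.6 CPM in TNRC6A-/- cells, 15.5, 19.3 and 23.5 CPM in TNRC6B-/- cells and 11.5, 12.6 and 15.5 CPM in TNRC6AB-/- cells, against 20.1, 23.2 and 35.3 CPM in WT, where the third library stood above the others. It fell in TNRC6A-/- cells by 0.70 (SE 0.16, adjusted p = 0.00482) and in TNRC6AB-/- cells by 0.99 on the log2 scale (SE 0.16, adjusted p = 4.98e-05), and in TNRC6B-/- cells the value was -0.43 (adjusted p = 0.162). After transfection it had 17.7, 17.3 and 19.3 CPM in TNRC6AB-/- siTNRC6C cells and 14.8, 13.8 and 14.3 CPM in TNRC6AB-/- siGL2 cells, against 46.5, 45.2 and 41.2 CPM in WT siGL2 cells. Every double-knockout library was lower than every WT siGL2 library, by a log2 value of -1.29 with siTNRC6C (SE 0.16, adjusted p = 9.81e-07) and -1.63 with siGL2 (SE 0.16, adjusted p = 1e-07). Between siTNRC6C and siGL2 in TNRC6AB-/- cells the log2 difference was 0.34 (95% interval 0.00073 to 0.68). INSIG2 and MYLIP changed in opposite directions and carry the same word, 1 match each to the miR-19b seed, which 12.8% of tested genes and 8 of 26 members hold. The windows are given with the match in capitals, at chr6:16148050-16148078 for MYLIP and chr2:118109180-118109208 for INSIG2, both on the plus strand.
MYLIP miR-19b site: gcatttgtttcTTTGCACagacattttgt
INSIG2 miR-19b site: atctcattgctTTTGCACatggagcatat

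**Figure D2:**
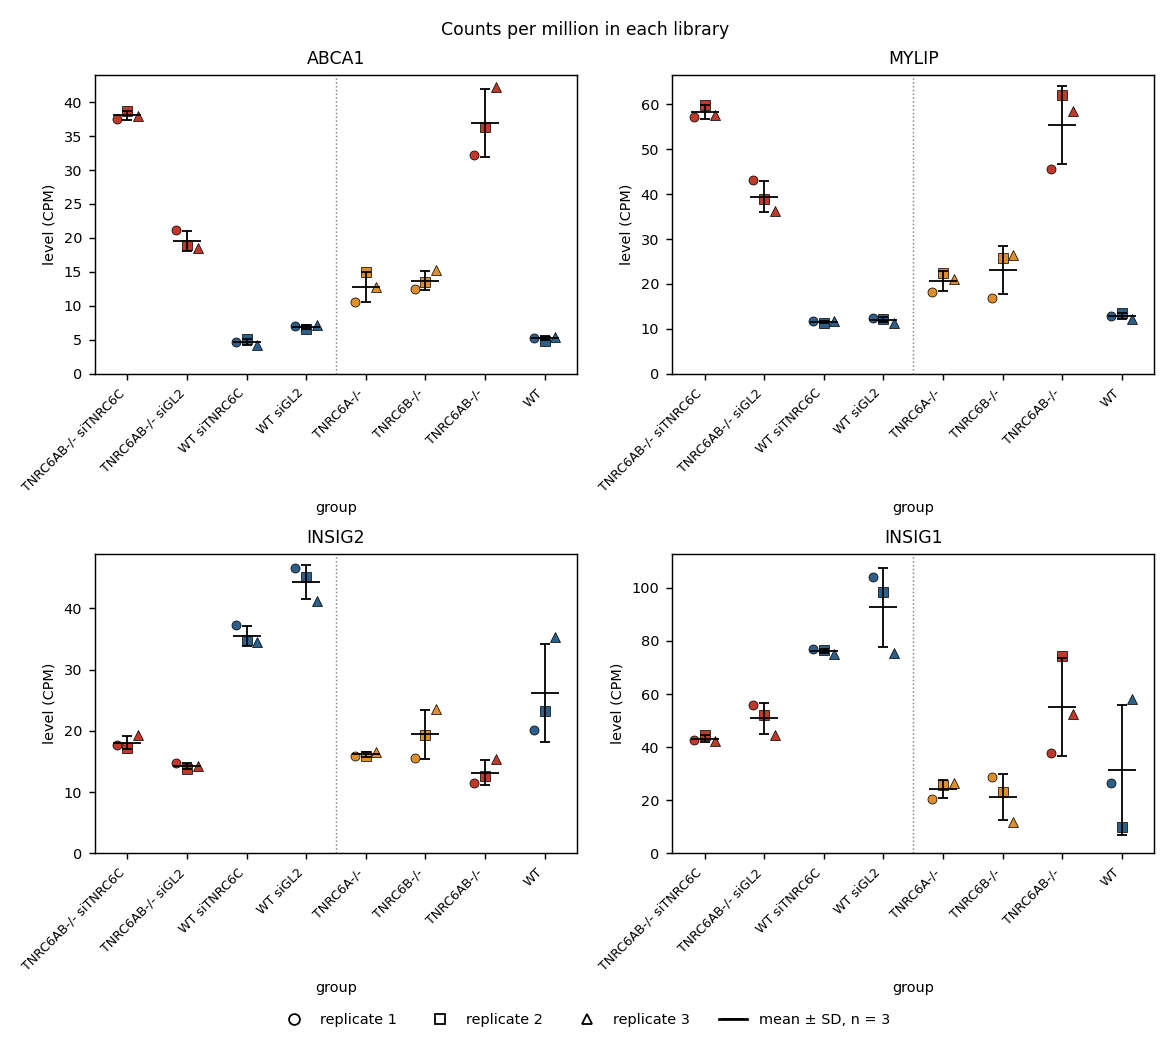
Levels of ABCA1, MYLIP, INSIG2 and INSIG1 (y axis, CPM) in the 24 libraries, by group, with the transfected groups left of the dotted line. Symbols are libraries and bars are mean ± SD (n = 3). ABCA1 reached 32.2 to 42.2 CPM in TNRC6AB-/- libraries, against 4.85 to 5.41 CPM in WT, while INSIG1 ranged from 9.84 to 58.0 CPM among the WT libraries alone.

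The SREBF1 transcript (ENSG00000072310.16, chromosome 17, 17810399 to 17837002, minus strand) was higher in the untransfected double knockout and, in CPM, lower in the double knockout given siTNRC6C. It had 181, 132 and 130.03 CPM in TNRC6A-/- cells, 129, 138 and 139.5 CPM in TNRC6B-/- cells and 165, 192 and 193 CPM in TNRC6AB-/- cells, against 121, 116 and 109.9 CPM in WT. The rise was 0.67 in TNRC6AB-/- cells (SE 0.11, adjusted p = 4.59e-05) and 0.35 in TNRC6A-/- cells (SE 0.11, adjusted p = 0.0298), the second a call that 7 of 15 alternative fits lost. After transfection it had 78.1, 86.3 and 75.3 CPM in TNRC6AB-/- siTNRC6C cells and 115, 106 and 102 CPM in TNRC6AB-/- siGL2 cells, against 112, 115 and 104 CPM in WT siGL2 cells. With siTNRC6C in WT the level was 114, 105 and 108 CPM, which overlapped WT siGL2. SREBF1 fell with siTNRC6C in the double knockout, by 0.47 against WT siGL2 (SE 0.11, adjusted p = 0.0013) and by 0.43 against TNRC6AB-/- siGL2 (SE 0.11, adjusted p = 0.0187). On the TPM scale the direction of the first flips, with 63.2 ± 5.78 TPM in TNRC6AB-/- siTNRC6C cells and 54.3 ± 9.59 TPM in WT siGL2 cells (SD, n = 3 each). SREBF1 overlaps RAI1 on the other strand, and part of its TPM came from transcripts annotated as retained intron or nonsense-mediated decay, so its level is not that of coding RNA alone.

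SREBF2 (ENSG00000198911.11, chromosome 22, 41833079 to 41907308, plus strand), the gene of SREBP2, had 126, 129.96 and 129 CPM in TNRC6AB-/- siTNRC6C cells, against 191, 197 and 159 CPM in WT siGL2 cells. It fell there by 0.51 (SE 0.16, adjusted p = 0.0153), a call lost in 4 of 15 alternative fits, although its mean TPM was higher, at 40.8 ± 2.11 TPM in TNRC6AB-/- siTNRC6C cells and 34.0 ± 2.88 TPM in WT siGL2 cells (SD, n = 3 each). In the other comparisons its log2 fold change lay between -0.42 and 0.19 and did not pass the test. SCAP, the escort, did not pass in any comparison, with log2 fold changes between -0.27 and 0.23. INSIG1 (chromosome 7, 155297776 to 155310235, plus strand), the brake that SREBP itself induces, had 42.6, 44.7 and 42.2 CPM in TNRC6AB-/- siTNRC6C cells, against 104, 98.3 and 75.6 CPM in WT siGL2 cells. It fell by 1.10 (SE 0.37, adjusted p = 0.0193), a call that 4 of 15 alternative fits lost.

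Promoter windows, which run from upstream of the start site to shortly after it, were taken from RefSeq (GRCh38.p14) for 25 of the 28 genes, in 33 windows. In these the sterol regulatory element was searched as TCACNCCAC and its usual partner as CCAAT, both on either strand. CCAAT was in 19 of the 33 member windows, for 17 genes, and in 34.6% of 35116 windows of all genes. TCACNCCAC was in 1 member window, that of SREBF2, and in 1.128% of all windows. Other forms of the element and sequence outside the windows were not searched, so a window without this word does not show that a gene lacks the element. The windows shown are those of the factor SREBF2, its target INSIG1 and the exporter ABCA1, with both motifs in capitals (ATTGG is CCAAT on the other strand). They lie at chr22:41832855-41833154 (plus strand), chr7:155297628-155297927 (plus strand) and chr9:104928106-104928405 (minus strand), in that order.
SREBF2 promoter: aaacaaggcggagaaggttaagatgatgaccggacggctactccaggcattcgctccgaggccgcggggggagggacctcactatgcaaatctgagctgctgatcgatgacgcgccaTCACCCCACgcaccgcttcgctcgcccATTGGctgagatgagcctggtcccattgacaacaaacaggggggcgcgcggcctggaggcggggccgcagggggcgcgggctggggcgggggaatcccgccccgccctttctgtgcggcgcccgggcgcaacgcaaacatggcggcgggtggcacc
INSIG1 promoter: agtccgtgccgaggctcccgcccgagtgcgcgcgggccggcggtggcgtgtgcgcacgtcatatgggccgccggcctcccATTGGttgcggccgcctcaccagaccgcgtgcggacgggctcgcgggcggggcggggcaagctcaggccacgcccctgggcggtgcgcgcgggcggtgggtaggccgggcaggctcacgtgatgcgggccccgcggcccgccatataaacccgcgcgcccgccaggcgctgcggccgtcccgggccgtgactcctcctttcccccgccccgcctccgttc
ABCA1 promoter: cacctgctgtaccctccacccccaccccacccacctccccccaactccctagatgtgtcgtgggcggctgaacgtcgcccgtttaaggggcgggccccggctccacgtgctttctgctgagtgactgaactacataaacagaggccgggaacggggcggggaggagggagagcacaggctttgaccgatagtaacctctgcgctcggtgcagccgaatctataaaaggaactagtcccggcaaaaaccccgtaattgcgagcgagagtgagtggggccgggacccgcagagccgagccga
In SREBF2 the 9-base element starts at position -133 and CCAAT at -106 from the start site, in INSIG1 CCAAT starts at -170, and neither word is in the ABCA1 window.

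In untransfected cells 10 of the 28 genes rose and 1 fell in TNRC6AB-/- against WT, where 17.2% of all tested genes rose and 12.3% fell. In TNRC6A-/- cells 5 rose and 1 fell (8.52% and 5.47% of all genes), and in TNRC6B-/- cells 2 rose, ABCA1 and MYLIP, and 0 fell (2.2% and 0.94%), by edgeR. In TNRC6B-/- cells 1 gene fell at an unadjusted p under 0.05 and 0 by DESeq2. The median log2 fold change of the members was 0.19 in TNRC6AB-/-, 0.05 in TNRC6A-/- and -0.03 in TNRC6B-/- cells, and over all tested genes the median lay between -0.06 and 0.04 in each comparison. Among the 18 enzymes 6 rose in TNRC6AB-/- cells and 0 fell, with 0 falling at an unadjusted p under 0.05 or by DESeq2. The count for TNRC6AB-/- turned on single libraries: 17 members were called without the third WT library, 7 without the second WT library and 7 without the second TNRC6AB-/- library.

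The 6 enzymes were spread over the pathway. TM7SF2, a sterol C14 reductase, had 21.3, 29.1 and 36.3 CPM in TNRC6AB-/- cells, against 15.9, 14.2 and 16.6 CPM in WT (log2 fold change 0.89, SE 0.15, adjusted p = 9.15e-05), and it also rose in TNRC6A-/- cells, to 22.7, 23.3 and 24.6 CPM (0.59, adjusted p = 0.0112). LSS, which closes the sterol ring by making lanosterol, had 42.9, 55.4 and 51.7 CPM in TNRC6AB-/- cells, against 33.7, 18.7 and 38.9 CPM in WT (log2 fold change 0.72, SE 0.18, adjusted p = 0.00373), and 53.4, 40.0 and 39.7 CPM in TNRC6A-/- cells (0.54, adjusted p = 0.0458, lost in 10 of 15 alternative fits). The TM7SF2 libraries of the knockouts and WT did not overlap, and those of LSS did not overlap either. IDI1, which interconverts the building units of isoprenoids, had 54.8, 79.9 and 61.3 CPM in TNRC6AB-/- cells, against 35.4, 22.6 and 64.5 CPM in WT (log2 fold change 0.68, SE 0.24, adjusted p = 0.0322). FDFT1, which makes squalene, had 76.9, 131 and 99.0 CPM in TNRC6AB-/- cells, against 67.7, 45.7 and 98.9 CPM in WT (log2 fold change 0.53, SE 0.20, adjusted p = 0.0435), a call lost in 11 of 15 alternative fits. Both overlapped WT, where the third library was high, and the call for IDI1 was lost in 6 of 15 alternative fits. PMVK, the mevalonate phosphate kinase, rose by 0.38 (adjusted p = 0.0337), SC5D, a sterol desaturase, by 0.48 (adjusted p = 0.00914) and STARD4, a carrier of cholesterol between membranes, by 0.57 (adjusted p = 0.0372), calls lost in 9, 4 and 5 of 15 alternative fits in that order. TM7SF2 shares exons with VPS51 on its own strand, and how reads were divided between them is not known. TM7SF2 also had more of its TPM from the transcript TM7SF2-216, annotated for nonsense-mediated decay, at 25.2% in TNRC6AB-/- and 16.5% in WT cells (means of 3).

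In CPM, enzymes of synthesis fell in the transfected double knockout, 12 of 18 with siTNRC6C and 5 of 18 with siGL2, each against WT siGL2. Of all tested genes 25.2% and 12.5% fell in these comparisons, in that order. In TNRC6AB-/- siTNRC6C against WT siGL2 cells, 17 of the 28 genes fell and 2 rose, where 25.2% of all tested genes fell and 17% rose. The falls were in 12 of the 18 enzymes, in 4 of the 5 SREBP genes and in STARD4, and the 2 that rose were ABCA1 and MYLIP. The median was -0.58 for the members and -0.65 for the enzymes, of which 0 rose, at an unadjusted p under 0.05 and by DESeq2 as well. The count stayed between 16 and 19 when any 1 of the 6 libraries was left out. The direction is relative to the rest of the transcriptome: the median TPM ratio of 15908 genes at 1 TPM or more was 0.52 on the log2 scale between these groups, and the 18 enzymes, 15 of which lay under that median, split into 8 above and 10 below 0 in TPM. Of the 17 falls, 13 were also lower in TPM, 8 of them with no overlap between the groups, and MSMO1, NSDHL, SREBF1 and SREBF2 were higher in TPM. The share of all tested genes without overlap in TPM was not counted, so the 8 only describe these members.

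Of the first steps, MVD, which makes isopentenyl pyrophosphate, had 20.1, 19.2 and 19.9 CPM in TNRC6AB-/- siTNRC6C cells, against 42.9, 41.3 and 32.8 CPM in WT siGL2 cells (log2 fold change -0.98, SE 0.16, adjusted p = 4.43e-05). IDI1 had 47.4, 49.3 and 52.1 CPM in TNRC6AB-/- siTNRC6C cells, against 105, 106 and 78.9 CPM in WT siGL2 cells (log2 fold change -0.96, SE 0.23, adjusted p = 0.00214). FDPS, which makes farnesyl pyrophosphate, had 69.9, 68.0 and 70.2 CPM in TNRC6AB-/- siTNRC6C cells, against 122, 117 and 92.4 CPM in WT siGL2 cells (log2 fold change -0.67, SE 0.20, adjusted p = 0.00839). In each of the 3 every knockout library was lower than every WT siGL2 library, on the CPM and the TPM scale. FDPS has 8 named pseudogenes in the annotation, so part of its count is uncertain. Of the other early enzymes, ACAT2 (an acetyl-CoA thiolase) gave 0.0012, HMGCS1 (HMG-CoA synthase) -0.24, MVK (mevalonate kinase) -0.18 and PMVK -0.14 as log2 fold changes, none past the threshold.

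Of the steps that commit to sterol, SQLE, the squalene epoxidase, had 42.6, 42.5 and 43.02 CPM in TNRC6AB-/- siTNRC6C cells, against 101, 96.3 and 78.5 CPM in WT siGL2 cells (log2 fold change -1.11, SE 0.20, adjusted p = 8.57e-05). It was the largest fall among the 18 enzymes in this comparison. FDFT1 had 76.6, 75.9 and 77.9 CPM in TNRC6AB-/- siTNRC6C cells, against 143, 135 and 107 CPM in WT siGL2 cells (log2 fold change -0.74, SE 0.20, adjusted p = 0.004). CYP51A1, the lanosterol demethylase, had 81.9, 82.1 and 85.1 CPM in TNRC6AB-/- siTNRC6C cells, against 144, 139 and 113 CPM in WT siGL2 cells (log2 fold change -0.67, SE 0.14, adjusted p = 0.000501). DHCR7, which makes cholesterol itself from its last precursor in one branch, had 30.5, 30.8 and 31.0 CPM in TNRC6AB-/- siTNRC6C cells, against 63.2, 64.0 and 48.7 CPM in WT siGL2 cells (log2 fold change -0.93, SE 0.20, adjusted p = 0.000703). For these 4 the knockout libraries were tight and the third WT siGL2 library was the lowest of its group, though still above them.

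The other sterol enzymes that passed gave log2 fold changes between -0.73 and -0.55. EBP, the sterol isomerase, had 22.99, 22.8 and 22.2 CPM in TNRC6AB-/- siTNRC6C cells, against 41.5, 39.1 and 31.6 CPM in WT siGL2 cells (log2 fold change -0.72, SE 0.19, adjusted p = 0.00437). HSD17B7, a sterol ketone reductase, had 9.05, 8.46 and 8.71 CPM in TNRC6AB-/- siTNRC6C cells, against 14.4, 16.1 and 12.9 CPM in WT siGL2 cells (log2 fold change -0.73, SE 0.17, adjusted p = 0.00118), and has 2 named pseudogenes. NSDHL, which takes part in removing the methyl groups at C4, had 14.0, 12.8 and 14.0 CPM in TNRC6AB-/- siTNRC6C cells, against 22.0, 22.1 and 18.2 CPM in WT siGL2 cells (log2 fold change -0.61, SE 0.15, adjusted p = 0.00286). MSMO1, the oxidase of the same step, had 56.0, 54.9 and 58.6 CPM in TNRC6AB-/- siTNRC6C cells, against 92.0, 85.9 and 70.9 CPM in WT siGL2 cells, and its call (log2 fold change -0.55, SE 0.19, adjusted p = 0.0261) was lost in 6 of 15 alternative fits. TM7SF2 had 8.82, 10.3 and 9.68 CPM in TNRC6AB-/- siTNRC6C cells, against 15.4, 16.1 and 13.4 CPM in WT siGL2 cells (log2 fold change -0.64, SE 0.15, adjusted p = 0.00201), in CPM the opposite of its direction without transfection. In TPM these groups overlapped, at 7.45 ± 0.30 in TNRC6AB-/- siTNRC6C cells and 7.71 ± 0.55 in WT siGL2 cells (SD, n = 3 each). LSS gave -0.01 and SC5D -0.21, neither past the threshold. Outside the enzymes, STARD4 had 56.8, 56.3 and 58.9 CPM in TNRC6AB-/- siTNRC6C cells, against 94.98, 95.4 and 83.7 CPM in WT siGL2 cells (log2 fold change -0.67, SE 0.20, adjusted p = 0.0101). NPC1, which lets cholesterol out of lysosomes, and LPIN1, a phosphatidate phosphatase, gave -0.12 and -0.27, and neither passed in any of the 9 comparisons.

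**Figure D3:**
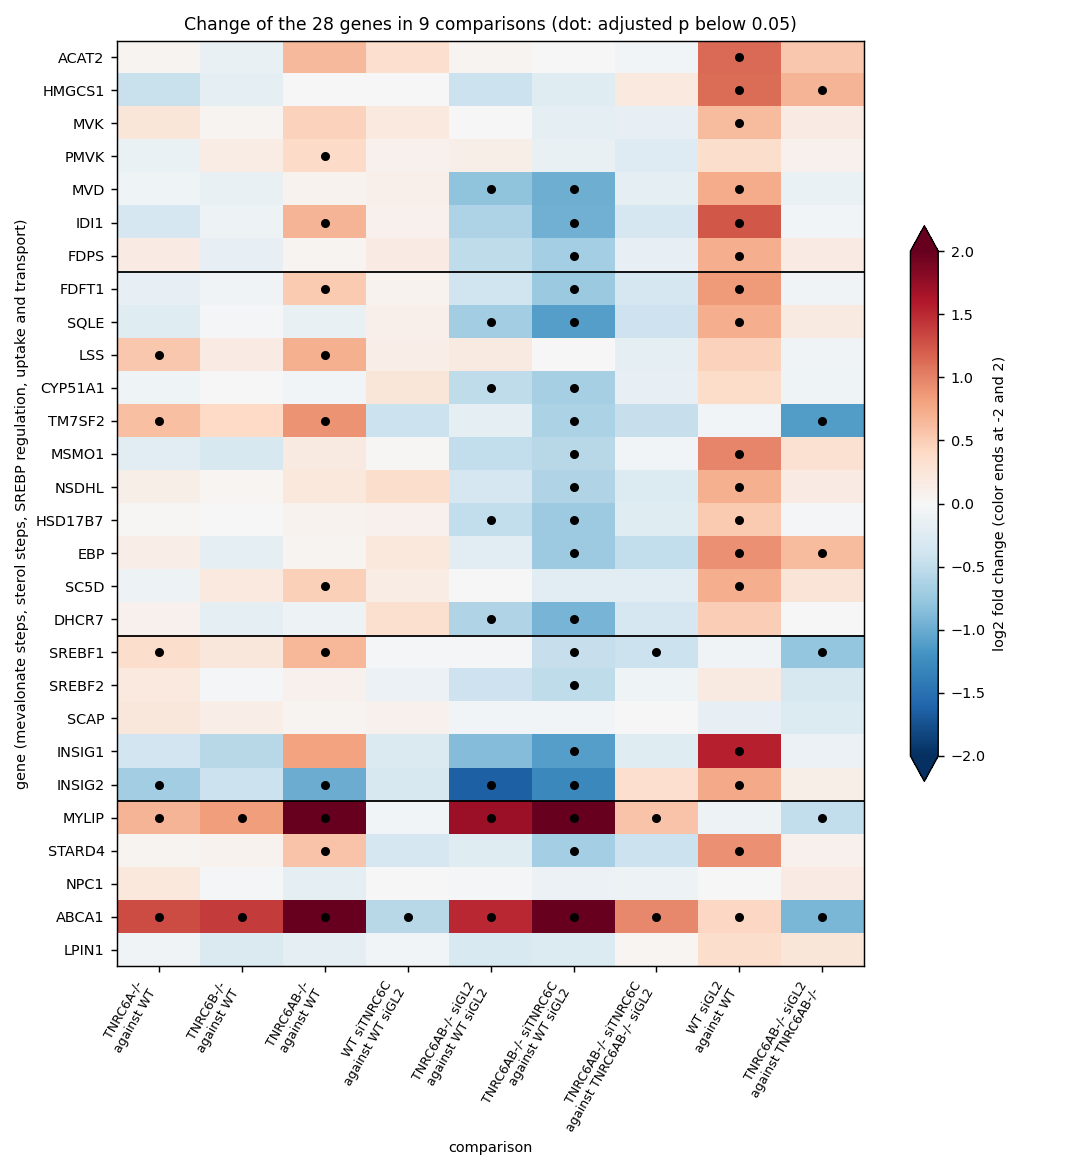
Log2 fold changes of the 28 genes (rows, by role) in 9 comparisons (columns), with color from blue (lower) to red (higher) and a dot where the adjusted p was below 0.05. The column of TNRC6AB-/- siTNRC6C against WT siGL2 has 17 falls and 2 rises, and that of WT siGL2 against WT has 17 rises and 0 falls.

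With siGL2 in place of siTNRC6C fewer members passed. In TNRC6AB-/- siGL2 against WT siGL2 cells 2 genes rose, ABCA1 and MYLIP, and 6 fell, where 9.17% of all tested genes rose and 12.5% fell. The falls were INSIG2, MVD (-0.81, adjusted p = 0.000833), SQLE (-0.69, adjusted p = 0.0118), DHCR7 (-0.60, adjusted p = 0.0334), CYP51A1 (-0.51, adjusted p = 0.0098) and HSD17B7 (-0.49, adjusted p = 0.0374). Of 15 alternative fits, 8 lost the call for HSD17B7, 5 that for DHCR7, and 2 each those for SQLE and CYP51A1. SQLE had 62.6, 56.9 and 51.5 CPM in TNRC6AB-/- siGL2 cells and MVD had 22.8, 22.9 and 21.0 CPM there, both below every WT siGL2 library. The median was -0.32 for the members. The count of 8 became 4 without the third TNRC6AB-/- siGL2 library, 5 without the first WT siGL2 library and 19 when only the 6 libraries of both groups were fitted. In this contrast the median TPM ratio of all genes was 0.37 on the log2 scale and 13 of the 18 enzymes lay under it, while 9 enzymes were above 0 and 9 below in TPM.

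Within the double knockout, siTNRC6C against siGL2 gave 2 rises, ABCA1 and MYLIP, and 1 fall, SREBF1, where 2.19% of all tested genes rose and 4.38% fell. None of the 18 enzymes passed in edgeR, 0 rose and 3 fell at an unadjusted p under 0.05, and 0 passed in DESeq2. The fall of SREBF1 was lost in 6 of 14 alternative fits. In the fit of these 6 libraries alone 1 enzyme rose and 11 fell, with 4 rises and 14 falls among the 28 genes. The share of all genes called in that fit was not counted, so these counts cannot be set against it. SQLE had 42.6, 42.5 and 43.02 CPM with siTNRC6C against 62.6, 56.9 and 51.5 CPM with siGL2, a log2 difference of -0.42 (SE 0.19, adjusted p = 0.192), and EBP had 22.99, 22.8 and 22.2 CPM with siTNRC6C against 33.1, 33.5 and 29.1 CPM with siGL2 (-0.50, SE 0.19, adjusted p = 0.121). Neither pair of groups overlapped, and 17 of the 18 enzymes had a negative difference in CPM, against 8 of 18 in TPM. Without the second TNRC6AB-/- siGL2 library the count of 3 fell to 1.

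In WT, siTNRC6C against siGL2 gave 0 rises and 1 fall, ABCA1, where 0.397% of all tested genes rose and 0.534% fell. At an unadjusted p under 0.05 there were 1 rise and 2 falls, by DESeq2 0 rises and 1 fall, and in the fit of these 6 libraries alone 4 rises and 5 falls. The median of the members was 0.08. Members were tight in the WT siTNRC6C libraries: SQLE had 97.4, 99.3 and 97.9 CPM there, and INSIG1 76.9, 76.5 and 75.2 CPM. Genes in general were tight there too. The highest of these libraries exceeded the lowest by a median factor of 1.05 over the members and 1.07 over 11761 genes with a mean of 5 CPM or more. The siTNRC6C effect differed between TNRC6AB-/- and WT in 1 gene in the positive direction, ABCA1, and 0 in the negative, where 0.903% and 2.13% of all genes did so. At an unadjusted p under 0.05 these counts were 3 and 4, by DESeq2 2 and 0, and in the fit of the 4 groups alone 3 and 16. For the unadjusted p and the other fits of this paragraph, shares of all genes were not counted.

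**Figure D4:**
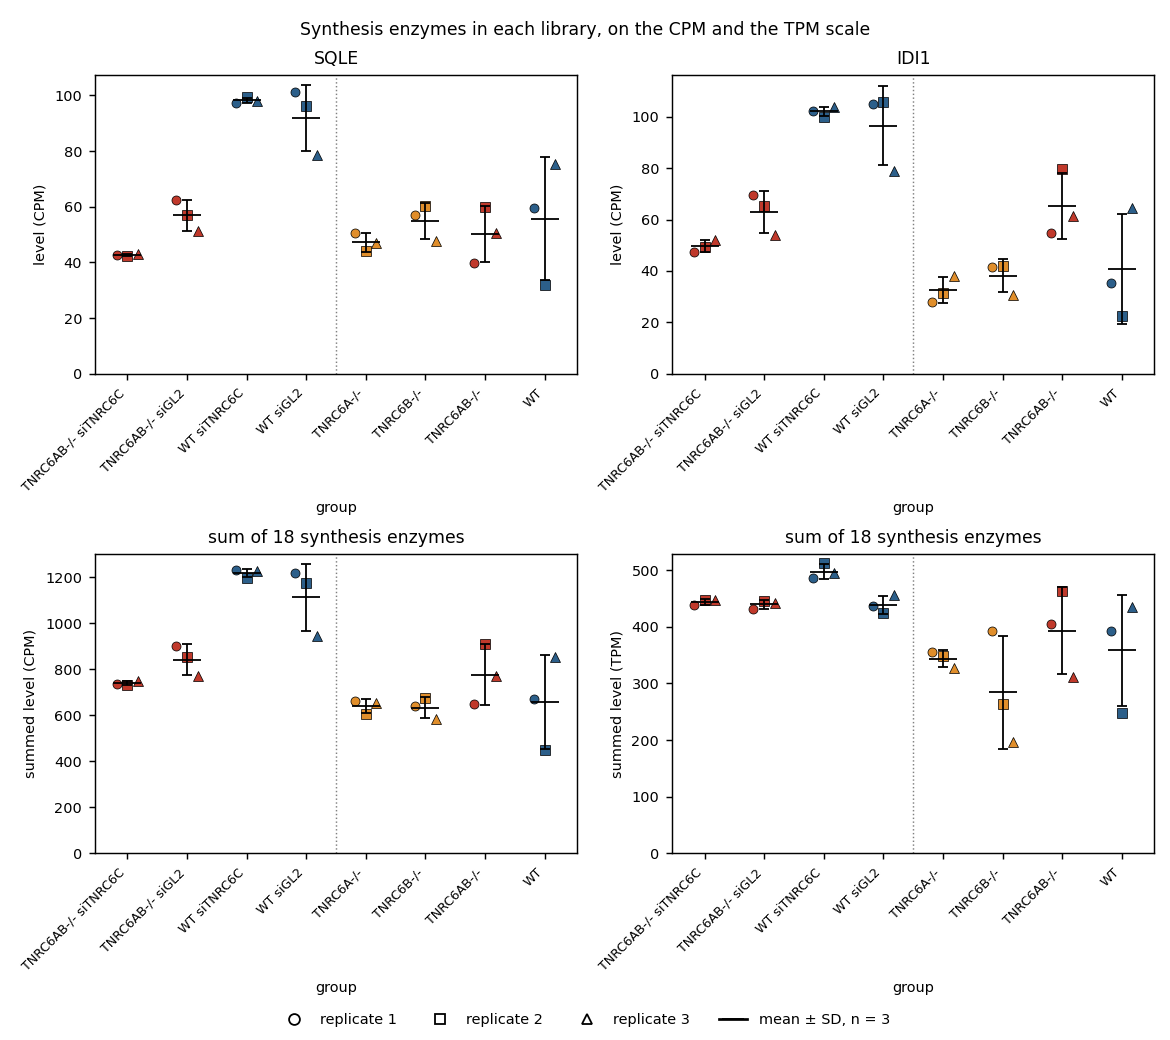
SQLE and IDI1 (upper panels, CPM) and the sum of the 18 synthesis enzymes (lower panels, CPM at left and TPM at right) in each library, with mean ± SD (n = 3) and transfected groups left of the dotted line. In summed CPM the TNRC6AB-/- siTNRC6C libraries (732.8 to 749.0) lie below the WT siGL2 libraries (944.3 to 1217), while in summed TPM they (438.4 to 447.1) fall inside the WT siGL2 range (424.1 to 455.6).

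The scale matters most for the summed level. The 28 genes together took 1292 ± 8.58 CPM in TNRC6AB-/- siTNRC6C cells and 1419 ± 100.02 CPM in TNRC6AB-/- siGL2 cells, against 1793 ± 203.7 CPM in WT siGL2 cells (SD, n = 3 each). In TPM the same sums were 686.7 ± 13.5 in TNRC6AB-/- siTNRC6C cells, 663.8 ± 18.0 in TNRC6AB-/- siGL2 cells and 630.6 ± 40.8 in WT siGL2 cells. The CPM sums were lower in both knockout groups and the TPM sums were not. CPM here carries the TMM factor, which was 1.07 to 1.10 in the TNRC6AB-/- siTNRC6C libraries and 0.85, 0.87 and 1.03 in the WT siGL2 libraries, and the third WT siGL2 library, lowest of its group in all 18 enzymes in CPM, was the highest in their summed TPM. Which scale follows RNA per cell was not tested. Counts rebuilt from TPM and transcript length, then scaled by TMM, gave numbers of called members within 1.5 times those of each comparison, except 0 in place of 1 in WT siTNRC6C against WT siGL2.

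Synthesis genes were higher in transfected than in untransfected WT cells. In WT siGL2 against untransfected WT 17 of the 28 genes rose and 0 fell, where 16.4% of all tested genes rose and 8.41% fell, and 0 fell at an unadjusted p under 0.05 or by DESeq2. The median log2 fold change was 0.67 for the members and 0.72 for the enzymes, of which 13 rose. Relative to the median TPM ratio of all genes, which was -0.32, 17 of the 18 enzymes were higher, and 14 were above 0 in TPM. A fit of these 6 libraries alone called 0 of the 28 genes, and 11 were called without the first WT siGL2 library.

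The untransfected WT libraries were far apart in these genes. INSIG1 had 104, 98.3 and 75.6 CPM in WT siGL2 cells, against 26.5, 9.84 and 58.0 CPM in WT (log2 fold change 1.56, SE 0.37, adjusted p = 0.00524). IDI1 had 105, 106 and 78.9 CPM in WT siGL2 cells, against 35.4, 22.6 and 64.5 CPM in WT (log2 fold change 1.24, SE 0.24, adjusted p = 0.00126), and ACAT2 had 49.6, 45.6 and 38.0 CPM in WT siGL2 cells, against 24.5, 6.69 and 29.6 CPM in WT (log2 fold change 1.13, SE 0.32, adjusted p = 0.0134). In all 3 genes the groups were separate, and the second WT library was far under the third. HMGCS1 had 134, 124 and 104 CPM in WT siGL2 cells, against 51.3, 37.2 and 79.4 CPM in WT (log2 fold change 1.11, SE 0.18, adjusted p = 0.000427). FDFT1 had 143, 135 and 107 CPM in WT siGL2 cells, against 67.7, 45.7 and 98.9 CPM in WT (0.86, adjusted p = 0.00388), and SQLE had 101, 96.3 and 78.5 CPM in WT siGL2 cells, against 59.7, 31.9 and 75.4 CPM in WT (0.72, adjusted p = 0.0101). The second WT library was the lowest in each of the 18 enzymes and the third the highest in 17. The highest WT library exceeded the lowest by a median factor of 2.09 over the enzymes, while over 11761 genes with a mean of 5 CPM or more the median factor was 1.28. In TNRC6AB-/- siTNRC6C libraries the factor was 1.04 for the enzymes and 1.06 for the 11761 genes.

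Other rises of this comparison ran from 0.41 in ABCA1 to 0.98 in MSMO1 on the log2 scale. MSMO1 had 92.0, 85.9 and 70.9 CPM in WT siGL2 cells, against 36.1, 31.2 and 58.9 CPM in WT (0.98, adjusted p = 0.00174). NSDHL had 22.0, 22.1 and 18.2 CPM in WT siGL2 cells, against 12.7, 9.29 and 16.2 CPM in WT (0.70, adjusted p = 0.0031). EBP had 41.5, 39.1 and 31.6 CPM in WT siGL2 cells, against 22.7, 11.5 and 25.4 CPM in WT (0.91, adjusted p = 0.00251). In these 3 no WT library reached a WT siGL2 library. MVD had 42.9, 41.3 and 32.8 CPM in WT siGL2 cells, against 24.3, 15.5 and 29.8 CPM in WT (0.75, adjusted p = 0.00289). FDPS had 122, 117 and 92.4 CPM in WT siGL2 cells, against 79.1, 37.4 and 84.4 CPM in WT (0.72, adjusted p = 0.011). HSD17B7 had 14.4, 16.1 and 12.9 CPM in WT siGL2 cells, against 10.8, 6.90 and 12.4 CPM in WT (0.53, adjusted p = 0.0236). Here too the groups were separate. MVK had 14.7, 14.8 and 11.9 CPM in WT siGL2 cells, against 9.42, 5.42 and 11.8 CPM in WT (0.64, adjusted p = 0.0199), and SC5D 50.8, 48.4 and 39.7 CPM in WT siGL2 cells, against 25.8, 23.5 and 34.2 CPM in WT (0.73, adjusted p = 0.00106). Outside the enzymes STARD4 had 94.98, 95.4 and 83.7 CPM in WT siGL2 cells, against 52.0, 26.8 and 67.2 CPM in WT (0.91, adjusted p = 0.00349), and INSIG2 (0.76, adjusted p = 0.00208) and ABCA1 (0.41, adjusted p = 0.0268) rose as well, the last a call lost in 8 of 15 alternative fits. CYP51A1 (0.37) and DHCR7 (0.50) did not pass.

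Among TNRC6AB-/- cells the same contrast called 6 members. In TNRC6AB-/- siGL2 against untransfected TNRC6AB-/- cells 2 genes rose, HMGCS1 and EBP, and 4 fell, TM7SF2, SREBF1, MYLIP and ABCA1, where 9.74% of all tested genes rose and 10.4% fell. HMGCS1 had 97.6, 90.9 and 81.0 CPM in TNRC6AB-/- siGL2 cells, against 52.7, 64.3 and 50.6 CPM in TNRC6AB-/- cells (log2 fold change 0.69, SE 0.18, adjusted p = 0.00775). TM7SF2 had 13.9, 13.1 and 12.9 CPM in TNRC6AB-/- siGL2 cells, against 21.3, 29.1 and 36.3 CPM in TNRC6AB-/- cells (log2 fold change -1.12, SE 0.15, adjusted p = 2.61e-05). EBP had 33.1, 33.5 and 29.1 CPM in TNRC6AB-/- siGL2 cells, against 18.3, 20.9 and 22.8 CPM in TNRC6AB-/- cells (log2 fold change 0.63, SE 0.19, adjusted p = 0.025, lost in 5 of 15 alternative fits). The groups did not overlap in these 3 genes. SREBF1 fell by 0.77 (adjusted p = 3.27e-05), ABCA1 by 0.92 (adjusted p = 1.71e-05) and MYLIP by 0.49 on the log2 scale (adjusted p = 0.0112, lost in 3 of 15 alternative fits), and in these 3 the values given above did not overlap between the groups. INSIG1 had 55.8, 52.1 and 44.6 CPM in TNRC6AB-/- siGL2 cells, against 37.9, 74.5 and 52.5 CPM in TNRC6AB-/- cells, a log2 difference of -0.11 (95% interval -0.89 to 0.66).

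The effect of the double knockout differed between transfected and untransfected cells, which share no library, in 7 genes. The difference (effect with siGL2 minus effect without transfection) was negative and past the threshold in INSIG1 (-1.67, SE 0.52, adjusted p = 0.0468), ABCA1 (-1.33, adjusted p = 8.28e-05), IDI1 (-1.30, adjusted p = 0.0163), TM7SF2 (-1.06, adjusted p = 0.00375), FDFT1 (-0.93, adjusted p = 0.0358), MVD (-0.88, adjusted p = 0.0188) and SREBF1 (-0.70, adjusted p = 0.00556). Of all tested genes 6.5% were called in this direction and 2.22% in the other, where 0 of the 28 were called, 0 also at an unadjusted p under 0.05 and by DESeq2. On the CPM scale the value was negative in 27 of the 28 genes, all but NPC1, with a median of -0.54. In TPM the median log2 ratio of the members was 0.13 with siGL2 and 0.12 without transfection. That of all genes at 1 TPM or more was 0.37 and -0.04, so the shift of the members is relative to other genes. The difference was not tested in TPM. The call for INSIG1 was lost in 14 of 21 alternative fits and that for FDFT1 in 11, while those for TM7SF2 and ABCA1 held in all 21. The count of 7 became 17 without the third WT library, 2 without the second TNRC6AB-/- library, 3 without the third TNRC6AB-/- siGL2 library, 4 without the first or the second WT siGL2 library and 3 in a fit of the 4 groups alone.

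**Figure D5:**
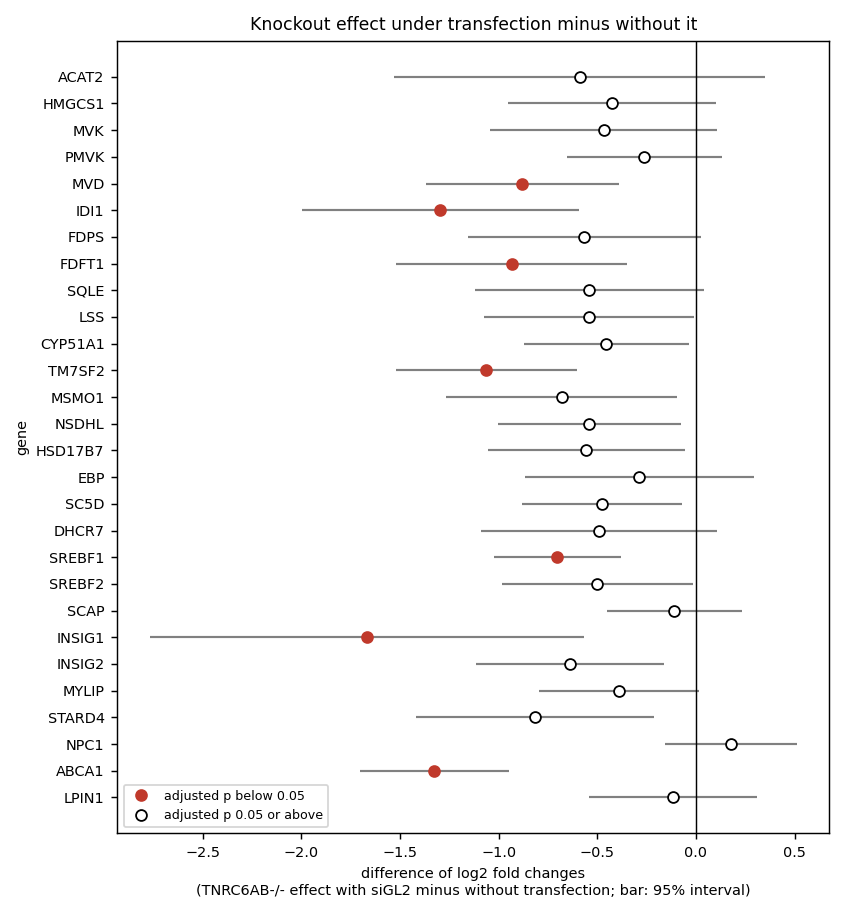
Difference between the TNRC6AB-/- effect with siGL2 and without transfection (x axis, difference of log2 fold changes) for the 28 genes, with 95% intervals as bars. Filled points have an adjusted p below 0.05. On this CPM scale all points but that of NPC1 lie below 0, from -0.11 in SCAP to -1.67 in INSIG1.

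Lists of neighboring pathways were read the same way, 2 genes of each named by the smallest adjusted p. All values of these lists are on the CPM scale. In TNRC6AB-/- siTNRC6C against WT siGL2 cells 11 of 15 fatty acid synthesis genes fell, with a median of -0.58, where 25.2% of all tested genes fell. FADS1, a fatty acid desaturase, averaged 44.6 ± 0.66 CPM in TNRC6AB-/- siTNRC6C cells and 103 ± 10.7 CPM in WT siGL2 cells (SD, n = 3 each, log2 fold change -1.21), and ELOVL6, a fatty acid elongase, gave -1.17. Most of this list is also under SREBP control in textbook accounts. In untransfected TNRC6AB-/- against WT cells 3 of the 15 rose and 3 fell (17.2% and 12.3% of all genes), among them ME1 (malic enzyme, -0.79) and ELOVL6 (-0.63), and in WT siGL2 against WT cells 6 rose (16.4% of all genes).

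Of 14 genes of sterol export, esterification and trafficking, 6 rose and 1 fell in TNRC6AB-/- against WT cells, where 17.2% of all tested genes rose and 12.3% fell. NCEH1, a cholesteryl ester hydrolase, averaged 41.6 ± 3.07 CPM in TNRC6AB-/- cells and 16.6 ± 1.70 CPM in WT (SD, n = 3 each, log2 fold change 1.32, adjusted p = 4.3e-09), and LPCAT3, a phospholipid acyltransferase, gave 1.10 (adjusted p = 1.08e-06). In TNRC6AB-/- siTNRC6C against WT siGL2 cells 4 of the 14 rose and 6 fell (17% and 25.2% of all genes). NCEH1 gave 0.93 (adjusted p = 4.03e-07) and NR1H2, 1 of the LXR genes, 0.79 (adjusted p = 6.17e-06). The LXR gene NR1H3 was lower, at 6.25, 5.99 and 6.20 CPM in TNRC6AB-/- siTNRC6C against 8.69, 10.9 and 7.95 CPM in WT siGL2 cells. LPCAT3 was lower as well, at 29.1, 32.0 and 30.8 CPM against 41.8, 38.8 and 34.6 CPM. Among lipoprotein receptors and their partners, LRPAP1, a receptor chaperone, rose in TNRC6AB-/- against WT cells (log2 fold change 0.56), and LRP8, a lipoprotein receptor, fell in TNRC6AB-/- siTNRC6C against WT siGL2 cells (-0.53).

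Of 12 genes of SREBP cleavage and of sterol-linked degradation in the endoplasmic reticulum, 3 (25%) rose and 1 (8.33%) fell in TNRC6AB-/- against WT cells, near the 17.2% and 12.3% of all tested genes, led by SEC23A (0.59) of the vesicle coat and the ubiquitin conjugase UBE2G2 (-0.61). In TNRC6AB-/- siTNRC6C against WT siGL2 cells 4 (33.3%) fell, where 25.2% of all genes did, led by SEC24D (-1.01) and SEC23A (-0.36), both of the coat that carries cargo from the endoplasmic reticulum. The isoprenoid branch, which leaves the pathway at farnesyl pyrophosphate, had 9 genes. In TNRC6AB-/- against WT cells 1 rose, PGGT1B (0.26), and 1 fell, PDSS1 (-0.70), and with siTNRC6C against WT siGL2 1 rose, PGGT1B (0.35), and 2 fell, PDSS1 (-0.47) and PDSS2 (-0.36). These isoprenoid counts lie below the shares of all genes.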

How the data were processed

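RNA of HCT116 cells was sequenced in 24 libraries, 3 in each of 8 groups. The authors quantified transcripts with Salmon (0.11.0) and deposited, for each library, the estimated counts of reads and the TPM of each transcript, with its length and effective length. The submitters' processing notes also name STAR 2.5.3a, DESeq2 (version not given) and the build hg38. The strand setting of the quantification is not given in the sources used here, and the RNA extraction is described differently by the labels and the methods. Each table held 199612 transcripts, of which 199368 matched GENCODE 29 by ID (196910 with the same version), and the 244 unmatched held no more than 0.0544% of any library. Estimated counts were summed per gene, rounded to whole numbers and tested with edgeR 4.0.16 in R 4.3.3: quasi-likelihood fit of 8 group means over all 24 libraries (16 residual degrees of freedom), TMM scaling, the default expression filter, and Benjamini-Hochberg adjustment over 24153 genes. SE is the absolute log2 fold change divided by the square root of the F statistic. TPM was summed per gene and compared without a test. DESeq2 1.42.0 and limma 3.58.1 (voom), other scaling and filters, a replicate block, the compared groups alone and leaving out libraries were tried as alternatives, and the fits were tested on simulated data. Tables and figures used Python 3.11.15, pandas 2.3.3, numpy 2.4.6 and matplotlib 3.10.9.

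The 28 genes, the pathway lists and the tests were chosen with earlier results of these data known. All 28 are described by role. Values in every library are given for members called with a log2 fold change beyond 0.6 in any of 9 comparisons, and from each pathway list the 2 genes with the smallest adjusted p in TNRC6AB-/- against WT and in TNRC6AB-/- siTNRC6C against WT siGL2. The microRNA and promoter searches were chosen after values were seen. Replicate numbers are shared between groups, but in no comparison did all 3 same-numbered pairs correlate above 0.1, so samples were not treated as paired. In TNRC6AB-/- siGL2 against WT siGL2, however, pairs 1, 2 and 3 correlated at 0.60, 0.05 and 0.71, so same-numbered libraries may vary together there. In TNRC6A-/- against WT the values were 0.46, 0.18 and 0.04. Binding data of the study were not analysed here. A gene that the naming rule selects is not reported here.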

Additional observations from a re-analysis of the deposited data

Results flagged for a closer look

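The effect of the double knockout differed by a test of the difference itself between transfected and untransfected cells in 7 genes. On the CPM scale the log2 differences (with siGL2 minus without transfection) were -1.67 in INSIG1, -1.33 in ABCA1, -1.30 in IDI1, -1.06 in TM7SF2, -0.93 in FDFT1, -0.88 in MVD and -0.70 in SREBF1. While the fall of TNRC6C itself differed by -1.25, the effect of siTNRC6C on ABCA1 differed between TNRC6AB-/- and WT cells by 1.52. For the first 7 values, fragment length moved with transfection, and in transfected cells plating density with genotype, and their part was not tested. The 4 groups behind the last value had fragments of 206.7 to 209.5 bases on average. With 3 libraries in each group, no library was tested as an outlier.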

How the results depend on the processing

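Of 81 called member values 35 kept their call in every alternative, 46 lost it in at least 1, and 0 reversed. Fitting only the libraries of the groups compared gave 3 called members for TNRC6A-/- against WT, 1 for TNRC6B-/-, 5 for TNRC6AB-/-, 9 for WT siTNRC6C against WT siGL2, 19 for TNRC6AB-/- siGL2 against WT siGL2, 18 for siTNRC6C against siGL2 in TNRC6AB-/-, 0 for WT siGL2 against WT, 3 for the transfection difference and 19 for the difference in siTNRC6C effect. With limma voom these counts were 1 for TNRC6B-/-, 4 for WT siTNRC6C, 17 for TNRC6AB-/- siGL2 against WT siGL2, 15 for siTNRC6C against siGL2 in TNRC6AB-/- and 11 for the difference in siTNRC6C effect, which was 2 with DESeq2. WT siTNRC6C against WT siGL2 gave 0 with RLE size factors, with counts rebuilt from TPM and with a log2 fold change beyond 0.6, which also gave 3 for TNRC6A-/-, 7 for TNRC6AB-/- and 1 for siTNRC6C against siGL2 in TNRC6AB-/-. Without a filter TNRC6AB-/- siGL2 against WT siGL2 gave 14. Leaving out the 4 libraries farthest from their group means, chosen after seeing the data, gave 12 for TNRC6A-/-, 12 for TNRC6B-/-, 2 for WT siTNRC6C, 17 for TNRC6AB-/- siGL2 against WT siGL2 and 5 for the difference in siTNRC6C effect. The cause of these moves was not tested, and shares of all genes called were counted only for the edgeR fit of all 24 libraries. Leaving out 1 library at a time gave 7 to 17 for TNRC6AB-/- against WT, 11 to 21 for WT siGL2 against WT, 2 to 17 for the transfection difference, 4 to 11 for TNRC6AB-/- siGL2 against WT siGL2, 1 to 2 for siTNRC6C against siGL2 in TNRC6AB-/- and 0 to 0 for WT siTNRC6C. The log2 ratio of the summed level was -0.34 in CPM and 0.07 in TPM for TNRC6AB-/- siGL2 against WT siGL2, -0.47 and 0.12 for TNRC6AB-/- siTNRC6C against WT siGL2, -0.13 and 0.05 for siTNRC6C against siGL2 in TNRC6AB-/-, and 0.58 and 0.15 for WT siGL2 against WT. With the replicate number as a block, the counts of called members were 6, 2 and 10 for TNRC6A-/-, TNRC6B-/- and TNRC6AB-/- against WT, 1 for WT siTNRC6C against WT siGL2, 19 for TNRC6AB-/- siTNRC6C and 8 for TNRC6AB-/- siGL2 against WT siGL2, 3 for siTNRC6C against siGL2 in TNRC6AB-/-, 17 for WT siGL2 against WT, 6 for TNRC6AB-/- siGL2 against TNRC6AB-/-, and 5 and 1 for the transfection and siTNRC6C differences. The block ended 3 of the 81 calls and added 0.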
